A study of Mus musculus with 8 samples.

Results

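Fgf3, Fgf4, Fgf5, Fgf8, Fgf10, Fgf15 and Fgf17 are 7 genes for secreted fibroblast growth factor (FGF) ligands of the gastrulating mouse embryo. They were chosen by name, as all probe sets whose platform annotation was exactly 1 of these symbols. The 7 genes are among 17097 with such a probe set and were read by 13 probe sets. Fgf8, Fgf10 and Fgf15 had 1 probe set each, Fgf3, Fgf5 and Fgf17 had 2, and Fgf4 had 4. All 13 passed a filter that asked for at least 2 of 8 arrays above 4.38, the median of all deposited log2 values, and 11706 genes passed it in all.

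The 8 arrays came from mouse embryos carrying Mesp1-rtTA, a tetracycline transactivator under Mesp1 control, together with Teto-H2B-GFP, a nuclear GFP that the transactivator switches on. Every group carried both transgenes, so the GFP- cells are reporter-negative cells of the same kind of embryo and not cells of wild-type embryos. The 4 groups of 2 arrays were GFP+ cells at E7.5, GFP- cells at E7.5, GFP+ cells at E6.5 and GFP- cells at E6.5, where E is the embryonic day. Each array held amplified RNA from 50 sorted living cells. The labels name the 2 arrays of a group biological replicates 1 and 2 but do not say whether embryos were pooled or which arrays shared embryos, and they give no strain. GFP marks cells in which the Mesp1-driven transgene was active, and a stable histone fusion can outlast that activity.

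FGF ligands bind receptor tyrosine kinases on the cell surface together with heparan sulfate, and the receptors signal through Ras and the MAP kinases. The targets include Sprouty, Spred and Dusp genes, whose products dampen the same signal. In the mouse, Fgf8 and Fgf4 are expressed in the primitive streak and Fgf8 is needed for mesoderm cells to move away from it, while Fgf5 is a marker of the epiblast, the layer from which all germ layers arise.

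Mesp1, a transcription factor gene of the first mesoderm, was at 9.75 and 10.03 in GFP+ cells at E6.5, against 5.64 and 6.26 in GFP- cells at E6.5. The difference was 3.94 (log2, SE 0.33, limma adjusted p = 0.0209). At E7.5 it was at 8.75 and 8.65 in GFP+ cells, against 7.76 and 8.06 in GFP- cells, so the fractions lay closer together at that stage.

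Promoter sequences show where the ligand genes with the widest differences start. Windows of 250 bases before the start of Fgf3, Fgf5 and Fgf10 are given because these 3 genes set the GFP- cells at E6.5 apart from the other groups on at least 1 probe set. They were taken from RefSeq on build GRCm38.p6, all on the plus strand, 5′ to 3′, at chr7:144838362-144838611 for Fgf3, chr5:98253934-98254183 for Fgf5 and chr13:118714449-118714698 for Fgf10. Capitals mark the only match to 4 short motifs searched on both strands.
Fgf3: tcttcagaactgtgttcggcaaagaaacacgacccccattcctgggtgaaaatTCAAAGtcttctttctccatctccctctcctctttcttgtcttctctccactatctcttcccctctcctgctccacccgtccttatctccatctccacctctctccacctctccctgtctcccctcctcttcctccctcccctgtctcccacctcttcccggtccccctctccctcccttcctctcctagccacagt
Fgf5: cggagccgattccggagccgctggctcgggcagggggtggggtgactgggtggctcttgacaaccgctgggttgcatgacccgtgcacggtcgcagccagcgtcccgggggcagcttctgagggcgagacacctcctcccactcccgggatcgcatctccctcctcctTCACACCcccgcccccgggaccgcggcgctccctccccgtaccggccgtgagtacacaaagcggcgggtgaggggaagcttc
Fgf10: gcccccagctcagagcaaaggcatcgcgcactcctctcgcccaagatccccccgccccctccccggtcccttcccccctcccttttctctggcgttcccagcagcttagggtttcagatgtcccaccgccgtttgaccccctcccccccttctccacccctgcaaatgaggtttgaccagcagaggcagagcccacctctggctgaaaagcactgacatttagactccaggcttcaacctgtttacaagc
The Fgf3 window held TCAAAG, the minus-strand form of the TCF/LEF core CTTTGA, at bases -197 to -192 counted from the start. The Fgf5 window held the T-box core TCACACC at bases -82 to -76, and the Fgf10 window held none of the motifs. The window of Fgf4, the neighbour of Fgf3, held the Snail E-box CAGGTG at bases -154 to -149. Of 32851 such windows of all genes, 13.8% held CTTTGA or TCAAAG, 3.33% held TCACACC or GGTGTGA, 17.2% held CAGGTG or CACCTG, and 12.4% held the fourth motif, TATAAA or TTTATA. The windows were 55.2% G or C for Fgf3, 71.2% for Fgf4, 70.8% for Fgf5 and 61.2% for Fgf10, where the median window had 52.4%. A match describes letters and is no evidence of binding. In the same annotation Fgf3, Fgf4 and Fgf15 are consecutive protein-coding genes on chromosome 7, whereas Fgf5, Fgf8, Fgf10 and Fgf17 lie on chromosomes 5, 19, 13 and 14.

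The first comparison asked how the Mesp1 reporter-positive cells differed from the reporter-negative cells at E6.5. Among the ligands, Fgf3 and Fgf10 were higher in both GFP+ arrays than in both GFP- arrays, and Fgf5 had a lower mean in GFP+ cells. None of the 7 ligands passed an adjusted p under 0.05 in limma, where 0.0769% of the 11706 genes passed. At an unadjusted p under 0.05 Fgf3 and Fgf10 passed, 2 of 7, where 5.73% of all genes did. The median difference of the 7 ligands was 0.44 on the log2 scale, and that of all genes was 0.01. These 2 ligands were also the 2 of 7 with both GFP+ arrays above both GFP- arrays, which 14.8% of all genes showed, and 0 of 7 had both below, which 13.7% of all genes showed. As arrays measure RNA of sorted cells together, fewer cells expressing a ligand and less RNA per cell cannot be told apart in any of these values.

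**Figure D1:**
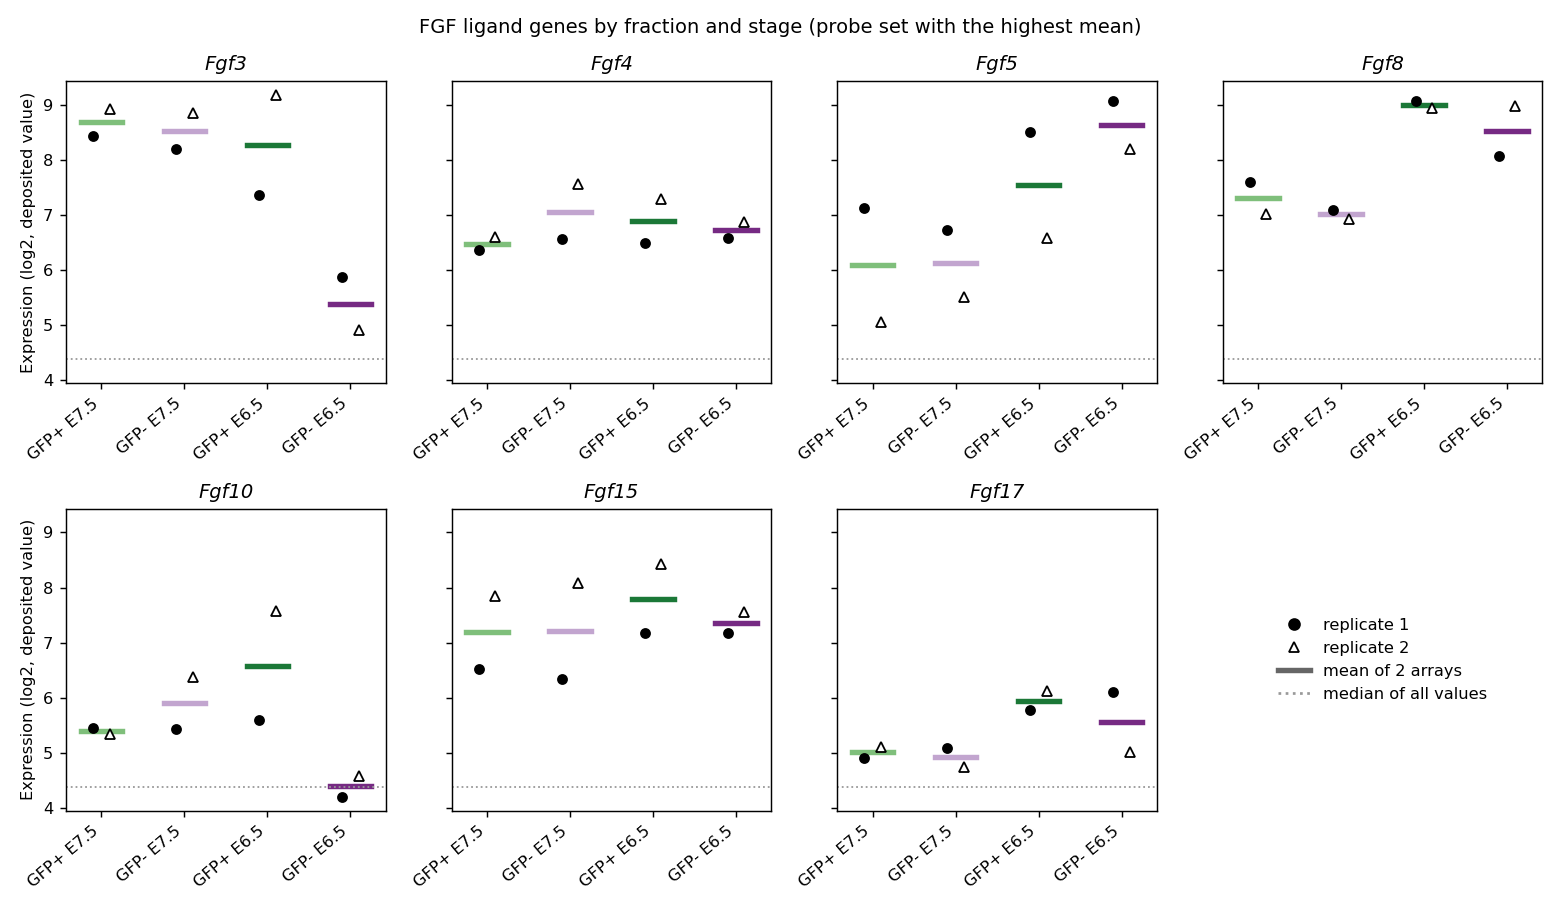
The log2 value of each ligand gene (vertical axis) is plotted for each array, by fraction and stage, with circles for replicate 1, triangles for replicate 2 and a bar for the mean of 2 arrays. The dotted line is the median of all deposited values, 4.38. Fgf3 and Fgf10 are lowest in GFP- cells at E6.5, and Fgf8 is higher on all 4 arrays of E6.5 than on all 4 of E7.5.

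Fgf3, a ligand known in the mouse for roles in the inner ear and in tail development, was at 7.37 and 9.18 in GFP+ cells at E6.5, against 5.87 and 4.91 in GFP- cells at E6.5. At E7.5 it was at 8.44 and 8.92 in GFP+ cells, against 8.20 and 8.85 in GFP- cells. The GFP- cells at E6.5 were therefore the low group, below all 6 other arrays, and the other 3 groups overlapped. The gap between fractions at E6.5 was 2.88 (SE 0.64, limma adjusted p = 0.255), which is 7.37-fold. It was 1.49 within replicate 1 and 4.27 within replicate 2. With a second probe set, 1422923_PM_at, Fgf3 was at 5.70 and 6.57 in GFP+ cells at E6.5 and at 5.06 and 4.73 in GFP- cells, and the gap was smaller, at 1.24. At E7.5 the fractions differed by 0.15 (SE 0.64). The change of the gap between stages, tested as the interaction of fraction and stage, was -2.73 (SE 0.90, limma adjusted p = 1.00). On the second Fgf3 probe set it was -1.26 (SE 0.76).

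Fgf10, a ligand best known from limb and lung budding and from the second heart field, was at 5.60 and 7.57 in GFP+ cells at E6.5, against 4.20 and 4.59 in GFP- cells at E6.5. The 2 GFP- arrays lay around the median of all values, so the size of this gap is uncertain. The gap was 2.19 (SE 0.64, limma adjusted p = 0.470), with 1.40 within replicate 1 and 2.99 within replicate 2. At E7.5 Fgf10 was at 5.45 and 5.35 in GFP+ cells, against 5.43 and 6.37 in GFP- cells, and these groups overlapped. Its stage differences ran in opposite directions, at -1.19 (SE 0.64) in GFP+ cells and 1.51 (SE 0.64) in GFP- cells. The interaction was -2.70 (SE 0.91, limma adjusted p = 1.00), and at an unadjusted p under 0.05 Fgf3 and Fgf10 were the 2 of 7 ligands that passed it on the probe set with the highest mean, where 2.71% of all genes did. No gene of the 11706 passed the interaction at an adjusted p under 0.05 in limma, with or without the replicate number as a block.

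Fgf5, the epiblast ligand, was at 8.50 and 6.58 in GFP+ cells at E6.5, against 9.06 and 8.19 in GFP- cells at E6.5. At E7.5 it was at 7.12 and 5.06 in GFP+ cells, against 6.73 and 5.51 in GFP- cells. Replicate 1 was above replicate 2 in all 4 groups, by 0.88 to 2.06, so the groups spread widely. The GFP+ minus GFP- difference at E6.5 was -1.09 (SE 0.88), with -0.57 within replicate 1 and -1.61 within replicate 2. A second probe set, 1426186_PM_a_at, set the GFP- cells at E6.5 apart from all others. There Fgf5 was at 7.35 and 6.09 in GFP+ cells at E6.5, against 8.92 and 8.46 in GFP- cells at E6.5, a difference of -1.97 (SE 0.62, limma adjusted p = 0.577). The 2 Fgf5 probe sets correlated at r = 0.923 over the 8 arrays.

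Fgf4, Fgf8, Fgf15 and Fgf17 overlapped between the fractions at E6.5 on the probe set with the highest mean. Fgf4, a ligand of the early epiblast and the streak, was at 6.49 and 7.29 in GFP+ cells, against 6.58 and 6.87 in GFP- cells. Fgf8, the streak ligand, was at 9.07 and 8.93 in GFP+ cells, against 8.07 and 8.98 in GFP- cells, so the low array was GFP- replicate 1. Fgf15, the mouse counterpart of human FGF19, was at 7.18 and 8.42 in GFP+ cells, against 7.17 and 7.55 in GFP- cells. Fgf17, of the same subfamily as Fgf8, was at 5.78 and 6.11 in GFP+ cells, against 6.10 and 5.02 in GFP- cells. Their differences were 0.16 (SE 0.44) for Fgf4, 0.48 (SE 0.39) for Fgf8, 0.44 (SE 0.72) for Fgf15 and 0.38 (SE 0.41) for Fgf17. Within replicates, the difference was -0.10 and 0.42 for Fgf4, 1.00 and -0.04 for Fgf8, 0.01 and 0.87 for Fgf15 and -0.32 and 1.09 for Fgf17. The second Fgf17 probe set, 1456239_PM_at, did not overlap between the fractions, at 6.27 and 5.55 in GFP+ cells at E6.5, against 4.10 and 5.14 in GFP- cells at E6.5. Its difference was 1.29 (SE 0.48, limma adjusted p = 0.745), with 2.17 within replicate 1 and 0.42 within replicate 2.

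The answer for Fgf4 depended on the probe set. The probe set with the highest mean, 1450282_PM_at, gave a higher GFP+ value in 1 of 4 pairs matched for stage and replicate, with differences between -0.96 and 0.42. The other 3 probe sets, which are annotated to 1 shared sequence accession, gave a higher GFP+ value in all 4 pairs. Of all genes, each read on its probe set with the highest mean, 9.1% showed that pattern. On 1449729_PM_at, Fgf4 was at 6.16 and 6.0 in GFP+ cells at E6.5, against 4.67 and 4.58 in GFP- cells at E6.5. At E7.5 the same probe set read 5.12 and 6.75 in GFP+ cells, against 4.03 and 5.33 in GFP- cells. Its 4 differences were 1.08 to 1.49, those of 1420085_PM_at 0.67 to 1.09 and those of 1420086_PM_x_at 0.75 to 1.21. The 3 correlated with each other at r = 0.965 to 0.985 over the 8 arrays, and with 1450282_PM_at at 0.105 to 0.147. The fitted differences of 1449729_PM_at were 1.25 at E7.5 and 1.46 at E6.5, and none of the 4 probe sets passed limma at an adjusted p under 0.05.

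**Figure D2:**
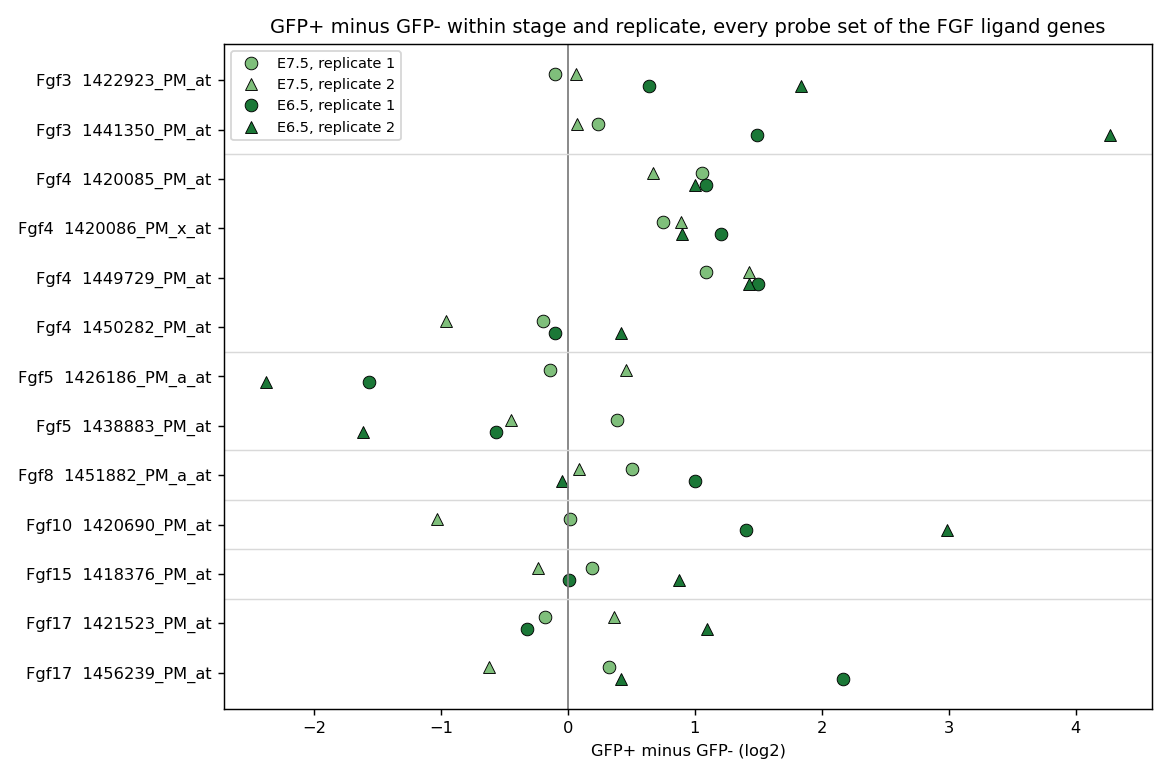
GFP+ minus GFP- differences (log2, horizontal axis) within each stage and replicate are drawn for all 13 probe sets of the ligand genes, in light green for E7.5 and dark green for E6.5, with circles for replicate 1 and triangles for replicate 2. The 3 Fgf4 probe sets of 1 accession lie right of 0 in all 4 pairs, while 1450282_PM_at lies between -0.96 and 0.42.

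The second comparison set the fractions against each other at E7.5. None of the 7 ligands passed limma at an adjusted p under 0.05 and none at an unadjusted p under 0.05, where 0% and 2.41% of all genes did. For 0 of 7 ligands were both GFP+ arrays above both GFP- arrays, or both below, which 10.3% and 10.8% of all genes showed. Fgf4 was at 6.36 and 6.60 in GFP+ cells, against 6.56 and 7.56 in GFP- cells, so that the difference was -0.58 (SE 0.44). Fgf8 was at 7.60 and 7.01 in GFP+ cells, against 7.10 and 6.93 in GFP- cells, and the difference was 0.29 (SE 0.39). Fgf15 was at 6.53 and 7.85 in GFP+ cells, against 6.34 and 8.08 in GFP- cells, and its replicate 2 array was the higher one in all 4 groups. Replicate 1 minus replicate 2 ran from -1.75 to -0.38 for Fgf15 and from -1.01 to -0.24 for Fgf4, and replicate 2 arrays also had higher medians over all probe sets (4.54 to 4.59, against 4.20 to 4.23 in replicate 1). Fgf17 was at 4.91 and 5.11 in GFP+ cells, against 5.09 and 4.75 in GFP- cells. The differences were -0.51 (SE 0.64) for Fgf10, -0.03 (SE 0.88) for Fgf5, -0.02 (SE 0.72) for Fgf15 and 0.09 (SE 0.41) for Fgf17, and the median of all 7 was -0.02, against -0.01 for all genes. Over both stages and on the probe set with the highest mean, Fgf3 was the only ligand higher in GFP+ cells in all 4 pairs matched for stage and replicate, a pattern that 9.1% of all genes showed. No ligand was lower in all 4, where 9.14% of genes were. The second Fgf3 probe set was higher in 3 of 4 pairs.

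The third comparison set E7.5 against E6.5 within each fraction. Fgf8, Fgf5 and Fgf17 were lower at E7.5 in all 4 pairs matched for fraction and replicate, a pattern that 11.1% of all genes showed, and no ligand was higher in all 4, where 9.62% of genes were. No ligand passed limma at an adjusted p under 0.05 in either fraction, where 0.0256% of genes passed for GFP+ and 0.094% in GFP- cells. At an unadjusted p under 0.05, Fgf8 passed in GFP+ cells (1 of 7, where 3.85% of all genes did). Fgf3, Fgf5, Fgf8 and Fgf10 passed at that level in GFP- cells (4 of 7, where 6.48% of all genes did). The stage and fraction comparisons share arrays, so their differences are not independent of each other.

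Fgf8 was lower at E7.5 with no overlap between the stages in either fraction, whereas Fgf10, which also separated in both, was lower at E7.5 in GFP+ cells and higher in GFP- cells. In GFP+ cells it was at 7.60 and 7.01 at E7.5, against 9.07 and 8.93 at E6.5, a difference of -1.70 (SE 0.39, limma adjusted p = 0.509). In GFP- cells it was at 7.10 and 6.93 at E7.5, against 8.07 and 8.98 at E6.5, a difference of -1.51 (SE 0.39, limma adjusted p = 0.363). The 4 arrays of E7.5 lay below the 4 arrays of E6.5. The differences within replicates were -1.47 and -1.92 in GFP+ cells and -0.97 and -2.05 in GFP- cells. Averaged over both fractions, a contrast added after the data were seen, the difference was -1.60 (SE 0.28, limma adjusted p = 0.0932).

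Fgf5 in GFP- cells was at 6.73 and 5.51 at E7.5, against 9.06 and 8.19 at E6.5, a difference of -2.51 (SE 0.88, limma adjusted p = 0.621). It was -2.33 within replicate 1 and -2.68 within replicate 2, and the second probe set gave -2.76 (SE 0.62, limma adjusted p = 0.269). In GFP+ cells Fgf5 was at 7.12 and 5.06 at E7.5, against 8.50 and 6.58 at E6.5, and the 2 stages overlapped, although the differences within replicates were -1.38 and -1.52. Averaged over both fractions the difference was -1.98 (SE 0.62, limma adjusted p = 0.435). With the replicate number as a block the same average passed (limma adjusted p = 0.0433). It was the only ligand call in any fit with or without the block, in a contrast added after seeing the data, where 0.803% of all genes passed with the block and 0.256% without it.

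Fgf3 in GFP- cells stood 3.13 higher at E7.5 than at E6.5 (SE 0.64, limma adjusted p = 0.197), with 2.33 and 3.94 within replicates. The second Fgf3 probe set gave 1.51 (SE 0.54, limma adjusted p = 0.667) for the same comparison. In GFP+ cells the 2 stages overlapped, with a difference of 0.40 (SE 0.64). Fgf10 stood 1.51 higher in GFP- cells at E7.5 (limma adjusted p = 0.767), from a level near the median of all values at E6.5. Fgf17 was at 4.91 and 5.11 in GFP+ cells at E7.5, against 5.78 and 6.11 at E6.5, a difference of -0.94 (SE 0.41). On its second probe set the difference was -2.12 (SE 0.48, limma adjusted p = 0.568), but 3 of 8 arrays read above 4.38 there and the means of both E7.5 groups lay below it. In GFP- cells the Fgf17 stages overlapped, with a difference of -0.64 (SE 0.41). Fgf15 differed by -0.61 (SE 0.72) in GFP+ cells and -0.15 (SE 0.72) in GFP- cells, and Fgf4 by -0.41 (SE 0.44) and 0.33 (SE 0.44). The median of the 7 ligands was -0.94 in GFP+ cells and -0.15 in GFP- cells, where all genes had -0.03 and -0.01. In GFP+ cells, both E7.5 arrays lay above both E6.5 arrays for 0 of 7 ligands (11.8% of all genes) and below for 3 of 7, Fgf8, Fgf10 and Fgf17 (15.2% of all genes). In GFP- cells they lay above for Fgf3 and Fgf10, 2 of 7 (13.1% of all genes), and below for Fgf5 and Fgf8, 2 of 7 (13.6% of all genes).

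**Figure D3:**
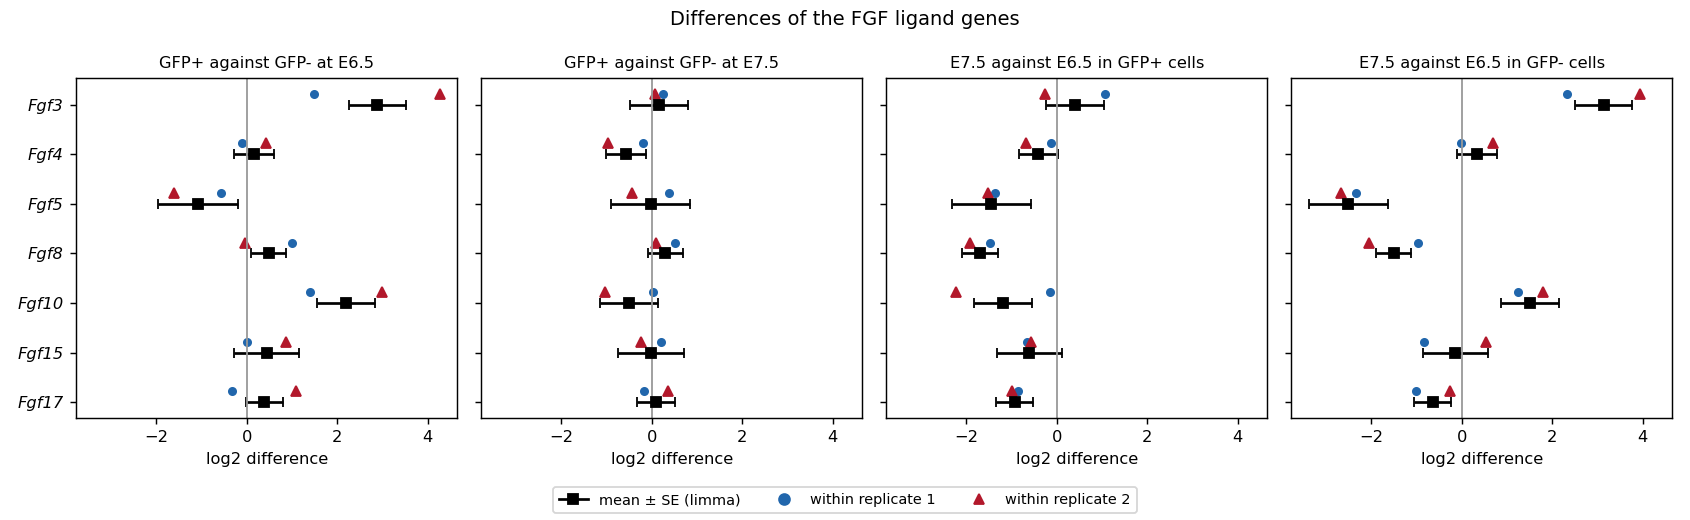
Squares give the mean log2 difference of each ligand gene with the standard error of the limma fit, and the circles and triangles beside them the difference within replicate 1 and within replicate 2. At E6.5 Fgf3 (2.88) and Fgf10 (2.19) lie farthest right among the fraction differences, and Fgf8 lies left of 0 in both replicates of both stage differences.

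In rank order of the group means, Fgf3 ran GFP+ at E7.5, GFP- at E7.5, GFP+ at E6.5 and GFP- at E6.5, and only the last 2 did not overlap. For Fgf8 the order was GFP+ at E6.5, GFP- at E6.5, GFP+ at E7.5 and GFP- at E7.5, with the break between the stages and overlap on both sides of it. For Fgf10 the order was GFP+ at E6.5, GFP- at E7.5, GFP+ at E7.5 and GFP- at E6.5, with the break before the last. The 4 groups of Fgf4 and of Fgf15 overlapped with their neighbours in rank throughout.

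Other genes of the pathway were described from 5 lists. No gene of any list passed limma at an adjusted p under 0.05 in any of the 5 contrasts. All 5 receptor genes were tested, 12 of 16 for heparan sulfate and co-receptors, 9 of 16 for intracellular transducers, 15 of 17 for feedback inhibitors and targets, and 7 of 15 for other FGF family genes. At an unadjusted p under 0.05, limma passed 1 of these 48 genes between the fractions at E7.5 (2.41% of all genes) and 5 at E6.5 (5.73% of all genes). Between the stages it passed 9 of 48 in GFP+ cells (3.85% of all genes), 3 of them receptor and 6 feedback genes. In GFP- cells it passed 10 of 48 (6.48% of all genes), 4 of them receptor and 5 feedback genes. In the interaction it passed 3 of 48 (2.71% of all genes). With the replicate number as a block, 2 genes passed, Fgfr2 between the stages in GFP- cells, where 0.333% of all genes did, and Spry1 between the fractions at E6.5, where 0.256% did.

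Fgfr2, a receptor gene, was at 8.80 and 8.82 in GFP+ cells at E7.5, against 6.57 and 6.42 in GFP+ cells at E6.5, a difference of 2.32 (SE 0.28, limma adjusted p = 0.125). In GFP- cells it was at 9.18 and 8.91 at E7.5, against 6.72 and 6.97 at E6.5, a difference of 2.20 (SE 0.28, limma adjusted p = 0.0652, and 0.0304 with the block). At E7.5 all 4 arrays were higher than all 4 of E6.5. Of the 5 receptor genes, 4 had both E7.5 arrays above both E6.5 arrays in GFP+ cells, where 11.8% of all genes did. Fgfr4 was among the 4, at only 3.77 and 4.83 at E7.5, against 3.52 and 3.47 at E6.5. Its group means lay below 4.38 except in GFP- cells at E6.5, where the mean was 5.22. Fgfrl1, a receptor without a kinase domain, had both below at -1.56 (SE 0.52), where 15.2% of all genes did. In GFP- cells 3 were above, where 13.1% of all genes were, and 1, Fgfr4, was below at -1.40 (SE 0.52), where 13.6% were. Between the fractions at E6.5, Fgfr4 was at -1.73 (SE 0.52), with its GFP+ mean below 4.38, and Fgfrl1 at 0.68 (SE 0.52). At E7.5 Fgfr4 was at 0.47 and Fgfrl1 at -0.67, and both overlapped. Over the receptor list the median difference between stages was 0.81 for the GFP+ fraction and 0.89 for the GFP- fraction.

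Spry1, a Sprouty inhibitor of receptor signalling, was at 5.28 and 5.46 in GFP+ cells at E6.5, against 7.58 and 7.24 in GFP- cells at E6.5. The difference was -2.04 (SE 0.29, limma adjusted p = 0.0996, and 0.0480 with the block). In GFP- cells it was 1.70 lower at E7.5 than at E6.5 (limma adjusted p = 0.124). Spred1, an inhibitor of Ras signalling, lay the other way between the fractions, at 7.91 and 7.60 in GFP+ cells at E6.5, against 4.66 and 5.50 in GFP- cells at E6.5. Its difference was 2.67 (SE 0.43, limma adjusted p = 0.125), and in GFP- cells it was 2.02 higher at E7.5 (SE 0.43, limma adjusted p = 0.227). Il17rd, a membrane inhibitor of FGF signalling also called Sef, had the lowest stage difference of the list in GFP+ cells. It was at 5.86 and 4.75 in GFP+ cells at E7.5, against 7.17 and 6.43 at E6.5, a difference of -1.50 (SE 0.46, limma adjusted p = 0.918). Dusp4, a MAP kinase phosphatase, was at 1.12 (SE 0.45) in the same comparison. Of the 15 feedback genes tested, 3 had both E7.5 arrays above both E6.5 arrays in GFP+ cells and 6 below, where 11.8% and 15.2% of all genes did. In GFP- cells 4 were above and 6 below, where 13.1% and 13.6% of all genes were. The median difference was -0.54 in GFP+ cells and -0.32 in GFP- cells. Between GFP+ and GFP- cells, 1 of 15 was above and 1 below at E7.5, where Spry1 (0.60) and Spry2 (-0.64) were at the ends. At E6.5, 5 were above and 2 below. Of all genes, 10.3% were above and 10.8% below at E7.5, and 14.8% above and 13.7% below at E6.5.

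**Figure D4:**
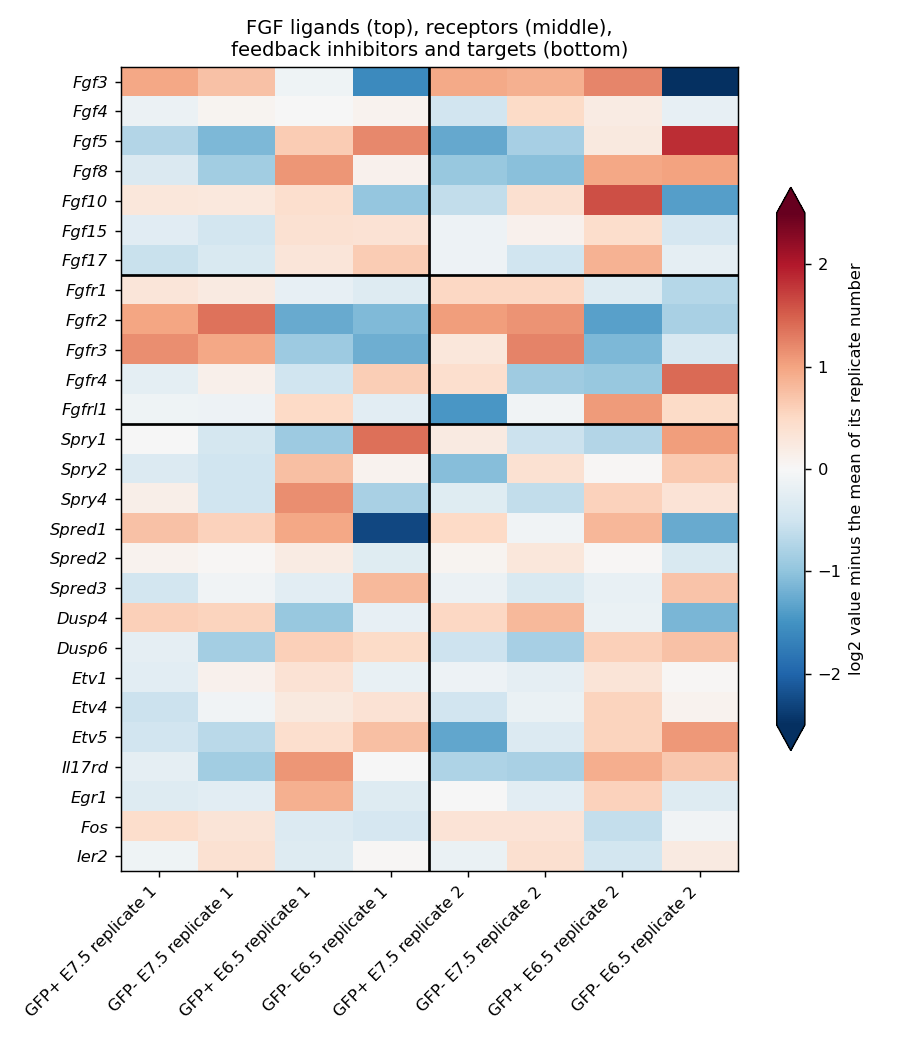
Colours give the log2 value of each array minus the mean of the 4 arrays of its replicate number, for the 7 ligand genes, the 5 receptor genes and 15 feedback genes, with replicate 1 left and replicate 2 right of the vertical line. Red is above and blue below that mean. Fgfr2 is red on all 4 arrays of E7.5, and Fgf3 and Spred1 are blue on both GFP- arrays of E6.5.

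Among genes of heparan sulfate synthesis and co-receptors, the widest differences at E6.5 between GFP+ and GFP- cells were those of Glce, the epimerase of the chain, at 1.25 (SE 0.69), and Gpc4, a glypican, at -1.81 (SE 0.58, limma adjusted p = 0.568). At E7.5 they were those of Ext1, a chain polymerase, at 0.86 (SE 0.44), and Hs6st1, a sulfotransferase, at -0.75 (SE 0.28). Between the stages, Sdc4, a syndecan, was at 1.03 and Glce at -1.46 in GFP+ cells, and Ugdh at 0.99 and Gpc4 at -0.79 in GFP- cells. In the transducer list, the kinase gene Braf was 0.64 (SE 0.30) higher at E7.5 and 0.60 (SE 0.30) higher at E6.5 in GFP+ than in GFP- cells, with no overlap at either stage. The adaptor Gab1 was at -0.91 at E7.5 and -1.02 at E6.5 (SE 0.81 each) and overlapped. Between the stages, Gab1 was at 0.73 in the GFP+ fraction and 0.63 in the GFP- fraction, and the adaptor Shc1 at -0.14 and -0.21. In the list of other FGF family genes, Fgf1, Fgf2, Fgf6, Fgf7, Fgf12, Fgf16, Fgf20 and Fgf23 did not pass the filter. Fgf13, whose product stays in the cell, was at -0.89 (SE 0.48) in GFP+ against GFP- cells at E6.5 and at 0.29 between the stages in GFP+ cells. Fgf14 differed by 0.39 at E7.5 and 0.14 at E6.5 between the fractions, and Fgf18 by -1.18 (SE 0.78) at E7.5. Between the stages, Fgf18 was at -0.47 in the GFP+ fraction and 0.50 in the GFP- fraction, and Fgf11 at -0.39 in GFP- cells.

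Genes whose values ran most like those of a ligand were ranked by Pearson's r over the 8 arrays after centring each gene within its replicate number, among the 11706 genes. For Fgf8 they were Il17rd (r = 0.988), Helb (0.984) and Gm550 (0.983). For Fgf5 they were Clcc1 (0.990), C630004L07Rik (0.977) and Igfbp2 (0.973), and for Fgf3 they were Lmf2 (0.979), Lrrc41 (0.959) and Ptprj (0.958). Fgf10 ran most like Usp19 (0.975), Gfra4 (0.963) and Wdpcp (0.963), and Fgf4 like Pgm2 (0.980), Plpp4 (0.975) and Myocd (0.965). Fgf15 ran most like Cenpx (0.988), Lrrc8a (0.978) and Secisbp2l (0.975), and Fgf17 like C8g (0.977), Gen1 (0.963) and Usp36 (0.963). Among the ligands themselves, r was 0.826 for Fgf5 with Fgf8, -0.866 for Fgf3 with Fgf5, 0.774 for Fgf3 with Fgf10 and 0.802 for Fgf15 with Fgf17. These values describe 8 arrays that share amplification and 4 group means, and they were picked as the highest of many.

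Marker lists of 8 cell types were read in the same groups, and some but not all of them differed between the groups. The levels of each marker list were summed on the linear scale in each array and are given as log2. Epiblast markers were at 12.40 to 12.43 in GFP+ cells at E6.5, against 13.28 to 13.36 in GFP- cells at E6.5. At E7.5 they were at 11.1 to 11.4 in GFP+ cells, against 12.2 to 12.4 in GFP- cells, so they were lower at E7.5 in GFP+ than in GFP- cells, as at E6.5. The members differed in this. Means at E6.5 in GFP+ and GFP- cells were 11.11 and 11.05 for Pou5f1 and 7.72 and 7.95 for Nanog. They were 7.27 and 10.97 for Utf1, 6.76 and 10.30 for Slc7a3 and 11.06 and 11.81 for Dnmt3b. Otx2, Sox2 and Cdh1 also had lower means in GFP+ cells at E6.5. Nascent mesoderm markers were at 13.2 to 13.3 in GFP+ cells at E6.5, against 10.2 to 11.0 in GFP- cells, and at 12.4 to 12.8 in GFP+ cells at E7.5, against 11.7 to 11.8 in GFP- cells. Visceral endoderm markers were at 7.53 to 7.95 in GFP+ cells at E6.5, with 5 of 8 genes above 4.38 and Apob, Cubn and Hnf4a below it. In GFP- cells at E6.5 they were at 9.35 to 11.4, with 8 of 8 above. Extraembryonic ectoderm markers were at 6.85 to 6.88 in GFP+ cells at E6.5, with Elf5 and Esrrb below 4.38, against 7.5 to 8.20 in GFP- cells, with 5 of 5 above. At E7.5 the visceral endoderm markers were at 8.26 to 8.27 in GFP+ cells, against 8.34 to 9.35 in GFP- cells. In GFP+ cells the mean of Dab2 was 5.18 at E6.5 and 6.97 at E7.5. No other gene of that list rose as far, with Apoa1 next at 4.86 and 5.24. The extraembryonic ectoderm markers were at 7.59 to 7.84 in GFP+ cells at E7.5, against 8.43 to 9.52 in GFP- cells. In those GFP- cells Elf5, Esrrb and Sox21 were at 6.60, 7.36 and 7.69 in replicate 1, but at 3.45, 3.02 and 4.76 in replicate 2. Cdx2 was at 7.60 and 8.04 there, so the replicate 2 sum was mostly Cdx2. Markers of definitive endoderm and node were at 6.73 to 7.04 in GFP+ cells at E6.5, against 7.03 to 10.1 in GFP- cells. The upper GFP- sum was mostly Cer1 in replicate 2, at 9.78, against 5.49 in replicate 1. In the same 2 arrays Foxa2 was at 5.57 and 3.94, Sox17 at 6.29 and 4.53 and Shh at 5.78 and 5.25. At E7.5 the sums of this list were at 9.86 to 10.1 in GFP+ cells, against 8.98 to 9.68 in GFP- cells. Cer1 made up most of these E7.5 sums, at 9.67 and 9.86 in GFP+ cells, against 9.43 and 8.48 in GFP- cells. The other members did not follow it. Their means in GFP+ and GFP- cells at E7.5 were 4.83 and 5.31 for Sox17, 5.09 and 5.15 for Foxa2 and 5.67 and 5.60 for Shh. Foxa1 had means below 4.38 in both fractions. For primitive blood, 0 of 5 markers had a mean above 4.38 in either fraction at E6.5, and at E7.5 the count was 1 of 5 in GFP+ cells and 2 of 5 in GFP- cells. Endothelial markers were at 7.39 to 8.15 in GFP+ cells at E6.5, against 6.79 to 7.17 in GFP- cells. At E7.5 the endothelial sums were 6.67 to 8.68 in GFP+ cells, against 7.94 to 8.12 in GFP- cells. Only 1 of 4 endothelial genes had a mean above 4.38, except in GFP- cells at E7.5, where 2 of 4 had. Etv2 made up most of these sums, at 7.02 and 7.94 in GFP+ cells at E6.5, against 6.11 and 6.63 in GFP- cells. Means at E6.5 in GFP+ and GFP- cells were 3.23 and 3.62 for Tal1 and 4.03 and 4.17 for Pecam1. Neural ectoderm markers were between 5.70 and 6.72 on all 8 arrays. The part of these other cells in the ligand values was not tested.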

How the data were processed

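The deposited values were log2 expression per probe set of 8 Affymetrix Mouse Genome 430 PM arrays, summarised by the authors with RMA per the submitters' processing notes. Cells were sorted by GFP and by exclusion of propidium iodide, and their cDNA was amplified for 25 cycles, per the labels' protocols. The RMA version and genome build are not given in the sources used here. With 2 arrays a group and RNA amplified from 50 cells, precision is limited. Array medians were 4.20 to 4.23 in replicate 1 and 4.54 to 4.59 in replicate 2, a split that no label explains and whose cause was not tested, so differences within a replicate number are given beside the pooled ones.

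Of 45141 probe sets, 28898 had 1 gene symbol in the platform annotation, 551 had several and 15692 were unnamed or controls. Probe sets with at least 2 of 8 arrays above 4.38, the median of all values, were kept. Where a gene had several, the brightest on average stood for it, and results of the other ligand probe sets are given beside it. limma 3.58.1 in R 4.3.3 (lmFit, contrasts.fit, eBayes) was fitted to all 8 arrays with a mean per group, which left 4 residual and 3.21 prior degrees of freedom. The p-values are two-sided and adjusted by the Benjamini-Hochberg method over 11706 genes, in 5 contrasts and in 2 averaged ones added after seeing the data. Where 2 arrays of a group differ, the p-values measure the spread between samples that the labels call biological replicates. Without the replicate number as a block, that spread also holds the offset that arrays of 1 replicate number share. For Fgf5 between the stages in GFP- cells, the SE was 0.88 without the block and 0.34 with it. Values above 4.38 are not a measure of presence, since background per probe set was not used here.

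The ligands, pathway lists, markers and motifs were chosen with earlier results of these data known. The genes named from the pathway lists are those that passed in any contrast and, per list and contrast, those with the highest and the lowest difference, and the 3 most alike genes are named for each ligand. Alternatives were the replicate number as a block, the 4 arrays of a comparison alone, no filter or a stricter one (4 of 8 arrays), the mean of all probe sets, quantile normalization, array medians subtracted, each other probe set of a ligand, and leaving out each array. Promoter windows came from RefSeq (GRCm38.p6), which matched 4 of 7 ligands. Fgf8, Fgf15 and Fgf17 are shown without a window.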

Additional observations from a re-analysis of the deposited data

Results flagged for a closer look

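The genes listed here are taken from the ligands and the pathway genes named by the rule for the lists. In each, both replicate pairs of one stage or fraction differed in one direction and both of the other in the opposite direction. Pathway genes that the rule did not name are left out even where they had this pattern. Egr1 is an example, with E7.5 minus E6.5 at -1.21 and -0.59 in GFP+ cells and 0.069 and 0.072 in GFP- cells. The share of all genes with the pattern is not given here. The difference of the differences is the interaction of fraction and stage, (GFP+ minus GFP- at E7.5) minus (GFP+ minus GFP- at E6.5), on the log2 scale. No gene passed it in limma, with an adjusted p of 0.738 for Spry1 and 1.00 for the others. Among the ligands, Fgf10 had an interaction of -2.70, with E7.5 minus E6.5 at -0.15 and -2.23 in GFP+ cells and at 1.24 and 1.79 in GFP- cells.

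Spry1 had 2.64, with GFP+ minus GFP- at 0.43 and 0.77 at E7.5 and at -2.29 and -1.78 at E6.5. Its stage differences also opposed each other, at 0.90 and 0.97 in GFP+ cells and at -1.82 and -1.58 in GFP- cells. Spred1 had -2.30, with stage differences of -0.23 and -0.34 in GFP+ cells and 2.86 and 1.17 in GFP- cells. Fgfr4 had 2.20, with stage differences of 0.25 and 1.36 in GFP+ cells and -0.49 and -2.31 in GFP- cells. Its group means lay below 4.38, the median of all values, except in GFP- cells at E6.5, so the size is uncertain. Hs2st1 had -1.48, with -0.46 and -0.83 in GFP+ cells and 1.25 and 0.43 in GFP- cells. Glce had -1.30, with fraction differences of -0.10 and -0.01 at E7.5 and 1.67 and 0.83 at E6.5. Ugdh had -1.08, with -0.45 and -0.04 at E7.5 and 1.53 and 0.14 at E6.5. Map2k2 had -0.50, with -0.14 and -0.47 at E7.5 and 0.29 and 0.09 at E6.5. The widest interactions of the transducer list were those of Map2k1 (0.53) and Map2k2.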

How the results depend on the processing

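No ligand passed an adjusted p under 0.05 in limma in any of the 5 contrasts under any of the alternatives. Fgf5 passed in the average of both stage contrasts with the block (limma adjusted p = 0.0433). The averaged contrasts were fitted in the main fit, with the block and per probe set, but not under the other alternatives. The lowest adjusted p was 0.158 over 280 differences with 1 array left out, 0.269 over 30 from other probe sets and 0.0634 over 238 from the other settings. The sign changed in 24 of the 280, 6 of the 30 and 3 of the 238. Replicate numbers are shared by the groups, and deviations of same-numbered arrays correlated at r = 0.401 to 0.532 over 6 pairs of groups, so arrays of a number share an offset. The labels do not say that a number marks the same embryos or day.

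Counts of all genes that passed moved more. For GFP+ against GFP- at E6.5, 9 genes passed. With the replicate block 30 did, with only the 4 arrays of the comparison 0, with no filter 6, with quantile normalization 16, with array medians subtracted 19, and 0 to 1 with 1 array left out. For E7.5 against E6.5 in GFP+ cells, 3 passed. With the replicate block 3 did, with only 4 arrays 0, with no filter 0, with array medians subtracted 8, and 0 to 3 with 1 array left out. For E7.5 against E6.5 in GFP- cells, 11 passed. With the replicate block 39 did, with only 4 arrays 4, with the mean of all probe sets 17, with quantile normalization 26, with array medians subtracted 30, and 3 to 10 with 1 array left out. GFP+ against GFP- at E7.5 and the interaction gave 0 throughout. The ligands gained no call from the block in these contrasts, and Fgfr2 (0.0304) and Spry1 (0.0480) were the pathway genes that passed with it. The result for Fgfr2, E7.5 against E6.5 in GFP- cells, also passed with quantile normalization (limma adjusted p = 0.0381).

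Some signs changed. For GFP+ against GFP- at E7.5, Fgf3 was -0.016 with probe set 1422923_PM_at. Fgf4 was 0.59 with the mean of all probe sets, 0.86 with 1420085_PM_at, 0.82 with 1420086_PM_x_at and 1.25 with 1449729_PM_at. The result for Fgf5, GFP+ against GFP- at E7.5, was 0.066 with the mean and 0.16 with 1426186_PM_a_at, and Fgf17 was -0.030 with the mean and -0.15 with 1456239_PM_at. The cause was not tested. With 1 array left out, the ranges for GFP+ against GFP- at E7.5 were -0.17 to 0.48 for Fgf3, -1.06 to 1.00 for Fgf5, -8e-05 to 0.59 for Fgf8, -0.89 to 0.85 for Fgf15, -0.082 to 0.26 for Fgf17, -2.35 to 0.0016 for Fgf18, -0.059 to 1.00 for Fgfr4, -1.45 to 0.11 for Fgfrl1 and -1.88 to 0.053 for Gab1. At E6.5 they were -0.24 to 0.56 for Fgf4, -0.18 to 1.07 for Fgf15, -0.16 to 0.93 for Fgf17 and -0.13 to 0.42 for Fgf14. For E7.5 against E6.5 in GFP+ cells they were -0.50 to 1.31 for Fgf3, -1.27 to 0.049 for Fgf15, -0.26 to 0.84 for Fgf13, -0.072 to 1.54 for Gab1 and -0.38 to 0.094 for Shc1. In GFP- cells they were -0.17 to 0.84 for Fgf4, -1.02 to 0.72 for Fgf15, -0.68 to 1.68 for Fgf18, -0.34 to 1.59 for Gab1, -1.73 to 0.14 for Gpc4 and -0.46 to 0.044 for Shc1. For the interaction they were -0.64 to 0.27 for Fgf8, -1.34 to 0.41 for Fgf15, -0.84 to 0.25 for Fgf17, -0.032 to 0.52 for Fgf14 and -2.15 to 0.21 for Fgf18. With 1 array left out, the lone array of its group is assumed to vary like the others.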
